A study of Mus musculus with 4 samples.

Results

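The 7 genes described here encode the histone acetyltransferase CREBBP and its paralog EP300, the histone H3 lysine 4 methyltransferases KMT2D and KMT2C, the H3K27 demethylase KDM6A of the same complexes, and the corepressor subunit NCOR1 with its deacetylase HDAC3. They were taken by name, out of 31053 genes in the count matrices, and not by a cut on any measured value. Earlier results of these data were known when they were chosen. Crebbp and Kmt2d are the 2 genes that the study deleted, the next 3 are their paralogs and a complex partner, and Ncor1 and Hdac3 act against them.

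The material was B220+IgD- cells sorted from spleens of 8 week old C57BL/6J mice, 10 days after sheep red blood cells had been given to start germinal center (GC) reactions. Every mouse carried Cγ1-cre, a Cre recombinase driven from the immunoglobulin γ1 heavy chain locus and active in B cells after activation. Mice had no floxed allele (WT), Crebbp fl/+ (C), Kmt2d fl/+ (K) or both Crebbp fl/+ and Kmt2d fl/+ (CK), so at most 1 copy of each gene could be lost. Each genotype was 1 mouse and 1 library, read from transcript 3′ ends as unique molecular identifiers (UMIs). There is therefore no test between single genotypes, and every 95% interval given for them covers counting error only.

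CREBBP and EP300 acetylate histones at enhancers and promoters, including H3K27, and are recruited by sequence-specific factors. KMT2D and KMT2C place the first methyl group on H3K4 at enhancers, in complexes that hold KDM6A and the shared core of WDR5, RBBP5, ASH2L and DPY30. In GC B cells the repressor BCL6 recruits NCOR1 and HDAC3, which remove the acetyl groups that CREBBP places, and CREBBP and KMT2D are among the genes most often mutated in follicular lymphoma.

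The study lists primers for a genotyping PCR of both floxed alleles. It shows that PCR for the heterozygous deletion by Cre in lymphoma samples of another cohort, and not for the mice read here. The primers are shown as designed sequences, and none of the counts below reads them.
mCrebbp_loxp_F: gtctgggtgtgtagatgcaagg
mCrebbp_loxp_R: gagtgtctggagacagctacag
mKmt2d_loxp_F: gttcactcagtggggctgtg
mKmt2d_loxp_R: gcagaagcctgctatgtcca
The Crebbp primers are 22 bases long and were found, on either strand, in 0 of 8 GENCODE vM21 transcripts of Crebbp. The Kmt2d primers of 20 bases were found in 0 of 5 transcripts of Kmt2d. The exons between the loxP sites are not given in the sources used here, and UMIs were read at the 3′ end. A level of either gene thus checks the amount of its 3′ end, not the deletion itself.

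In GRCm38, Crebbp spans chr16:4081328-4213997 on the minus strand and Ep300 spans chr15:81585351-81652077 on the plus strand. Kmt2d lies at chr15:98831669-98871204 on the minus strand, and Kmt2c at chr5:25271798-25498783 on the minus strand. Kdm6a is X-linked, at chrX:18162575-18279936 on the plus strand. Ncor1 lies at chr11:62316426-62458541 and Hdac3 at chr18:37935844-37955016, both on the minus strand. The merged exons of 6 of the 7 genes are long, from 8383 bases for Kdm6a to 20291 for Kmt2c, and those of Hdac3 sum to 4054 bases.

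Library totals ran from 33270825 to 39803865 UMIs. The deposited annotation named between 1227 (WT) and 3953 (CK) GC B cells per library. Outside it, 2006 to 4035 cells per library held at least 2 UMIs of Cd3e, Cd3d and Cd3g together and are called T cells, and 1125 to 2607 cells met a marker rule for non-GC B cells. The summed level of 6 T cell markers was 4565 to 5158 UMIs per 1000000 (CPM) in T cells and 117 to 180 CPM in GC B cells, with none of the markers at 0. That of 7 GC B cell markers was 1901 to 2028 CPM in GC B cells and 275 to 392 CPM in T cells, of which 376 to 789 per library also held at least 2 UMIs of Cd79a and Cd79b. In non-GC B cells, 3 plasma cell markers summed to 3455, 1977, 6175 and 3842 CPM in WT, C, K and CK. Their sum in GC B cells was 1107 to 1339 CPM. For 2 plasmacytoid dendritic cell markers the non-GC B sum was 299 CPM in K and 141 to 157 CPM elsewhere. How far other cell types enter the non-GC B class was not tested. Between 17 and 31 cell barcodes were shared by any pair of libraries. The study describes the mice as female, whereas the Y-linked Ddx3y was read in every library, at 41.5 to 71.4 CPM in GC B cells, and Xist had 0 UMIs in WT, C and K and 2 in CK. The label and the counts therefore disagree on sex in all 4 libraries, which bears on Kdm6a, since females read it from both X chromosomes.

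The K library stood apart from the other libraries before any of the 7 genes was considered. In K, genes with long transcripts were lower than in WT, and they were so in T cells as much as in GC B cells. Across 10263 genes in GC B cells, the log2 ratio of K over WT had a Spearman rho of -0.41 with exonic length, and across 10772 genes in T cells the rho was -0.47 (genes are not independent replicates). With genes cut into 5 equal groups by length, from the shortest group to the longest, the median log2 ratio of K over WT went from 0.095 to -0.51 in GC B cells and from 0.084 to -0.52 in T cells. For C and CK the rho lay between -0.15 and -0.074. Of the 7 genes, 6 fall in the longest group and Hdac3 in group 3 of 5. Class totals of K are therefore given beside those of T cells of the same library, while values by subtype and pseudotime have no such reference. The part of transcript length in any single K value was not tested.

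**Figure D1:**
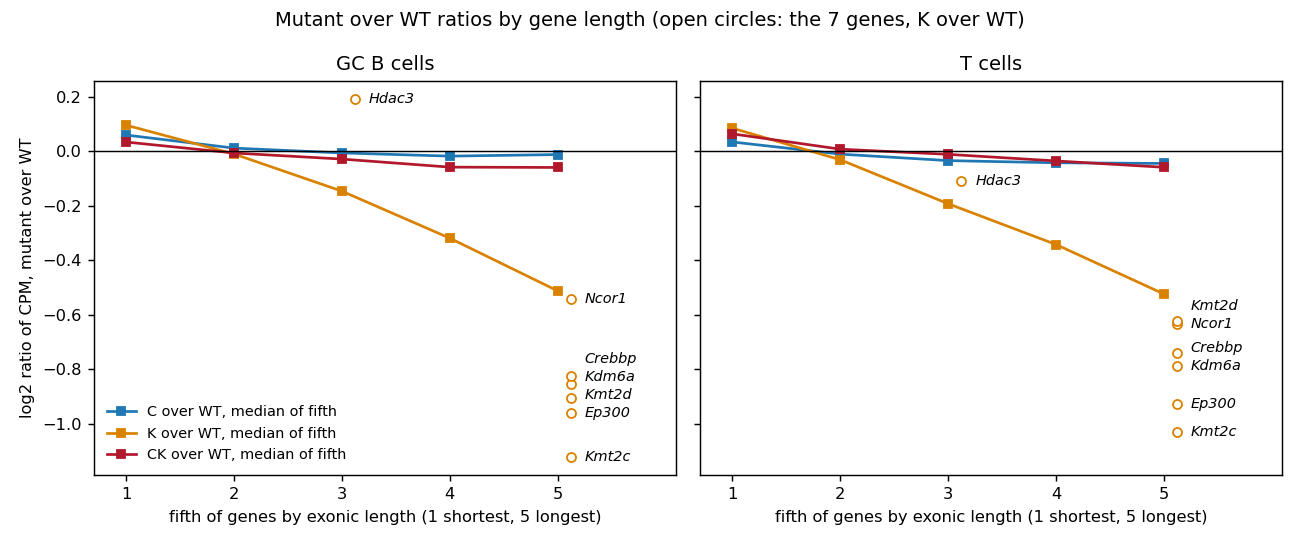
Median log2 ratio of CPM, mutant over WT, in each of 5 equal groups of genes by exonic length (filled squares), in GC B cells on the left and T cells on the right. Open circles are K over WT for the 7 genes. The K line descends to -0.51 in GC B cells and -0.52 in T cells, and the 6 long genes lie at or below its end in both classes.

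Crebbp was lower in GC B cells of every mutant library than in WT. Its level was 68.4 CPM in WT (62.0 to 75.3), 43.0 CPM in C (38.7 to 47.6), 38.6 CPM in K (35.3 to 42.2) and 37.96 CPM in CK (34.9 to 41.2). The 3 mutant libraries thus held 0.628, 0.564 and 0.555 of the WT level, with intervals that did not reach that of WT. In T cells the order was another one. There Crebbp stood at 78.4 CPM in WT, 75.1 CPM in C, 46.97 CPM in K and 63.4 CPM in CK. The C library was at 0.958 of WT in T cells (log2 -0.06, -0.23 to 0.10), whereas K was low in both classes. CK was lower than WT in T cells as well, at 0.809 (log2 -0.31, -0.46 to -0.15), though by less than in GC B cells. Non-GC B cells resembled T cells in this respect, with 75.2 CPM in WT and 71.5 CPM in C, and with 67.7 CPM in CK against 45.7 CPM in K.

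**Figure D2:**
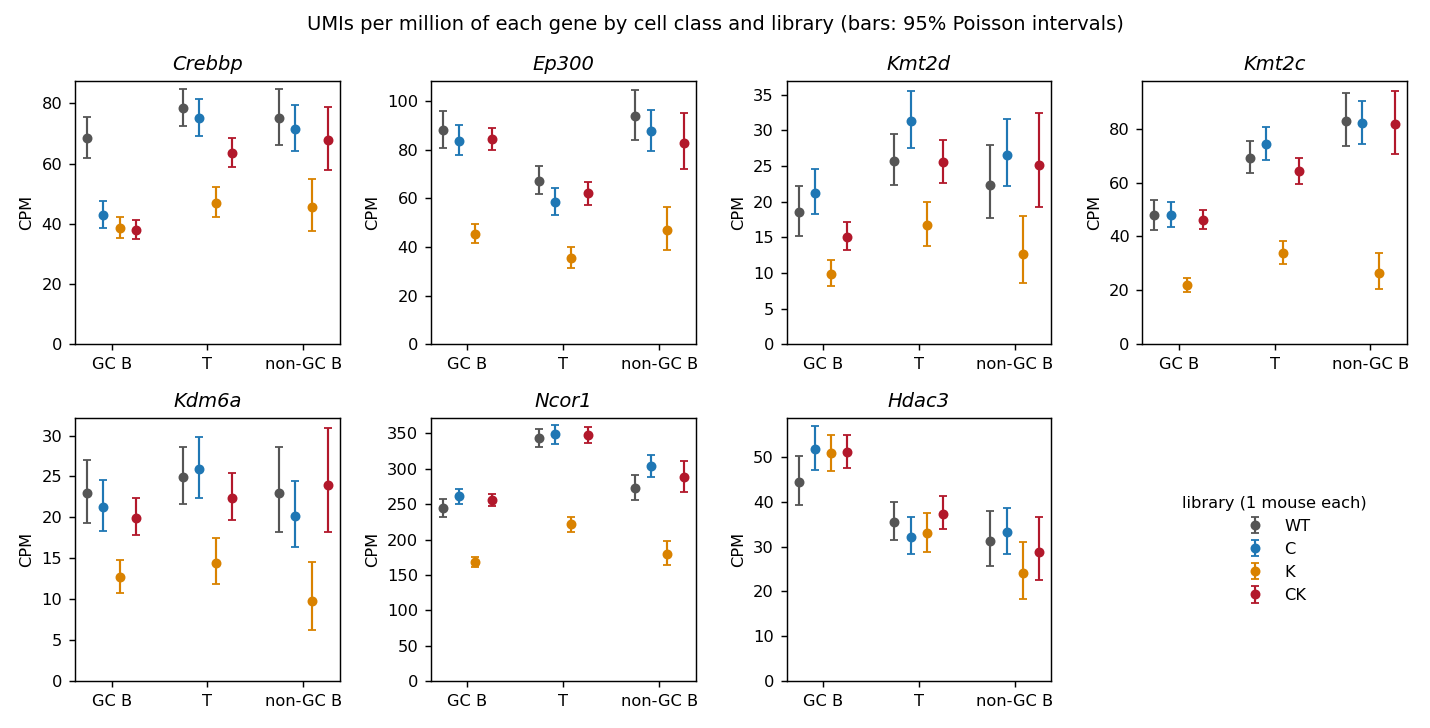
Level of each gene in CPM in GC B cells, T cells and non-GC B cells, 1 point per library with its 95% Poisson interval. For Crebbp, C and CK sit below WT in GC B cells by more than they do in T cells or non-GC B cells, and the K library is lowest or nearly so for all genes but Hdac3 in every class.

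Dividing GC B cells by T cells of the same library separated the libraries by Crebbp genotype. The ratio was 0.873 in WT (0.770 to 0.990) and 0.822 in K (0.715 to 0.947), against 0.573 in C (0.501 to 0.653) and 0.599 in CK (0.535 to 0.669). Relative to T cells and to WT, the level of Crebbp was thus at 0.656 of WT in C (log2 -0.61, -0.87 to -0.35) and at 0.685 in CK (log2 -0.55, -0.78 to -0.31). In K the log2 value was -0.09 and its interval included 0 (-0.35 to 0.18). With non-GC B cells in place of T cells, these values were -0.60, -0.70 and -0.11 in C, CK and K. They were -0.69 in C and -0.53 in CK without cells that held markers of both lineages. With each cell thinned to 2000 UMIs and T cells as the reference, they were -0.76 in C and -0.41 in CK. Past a fold of 1.5 the value of C counted 1 of the 7 genes as lower, where 2.67% of 8684 genes were. In K and in CK none of the 7 passed it, where 4.63% of 8538 genes and 5.01% of 8791 genes did.

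Taking the 4 libraries as a 2-factor design allowed a test across all genes, with the 2 libraries that carry Crebbp fl set against the 2 that do not. It was edgeR's quasi-likelihood test on summed UMIs, with library as a block and 1 residual degree of freedom. Crebbp was lower with the floxed allele by a log2 difference of -0.55 (SE 0.12), ranked 25 of 10892 genes by p. The unadjusted p was 0.0004 and the Benjamini-Hochberg adjusted p of edgeR was 0.17, so Crebbp did not pass the threshold of 0.05. Called genes numbered 5, or 0.0459% of those tested. The call depended on the cells and libraries used. The adjusted p of edgeR was 0.0032 with T cells under the limits of the annotation, 0.04 without cells holding markers of both lineages, and 1 in DESeq2. Fits with no term for Kmt2d fl, chosen after seeing the data, gave an edgeR adjusted p of 0.96 with all 4 libraries and, with 1 left out, of 0.06 without WT, 1 without C, 0.0043 without K and 1 without CK. In each of the latter 1 arm is a single library, assumed to vary like the other arm. The log2 difference stayed between -0.61 and -0.50 in all of these. The other 6 genes had differences from -0.09 to 0.09 in this test.

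**Figure D3:**
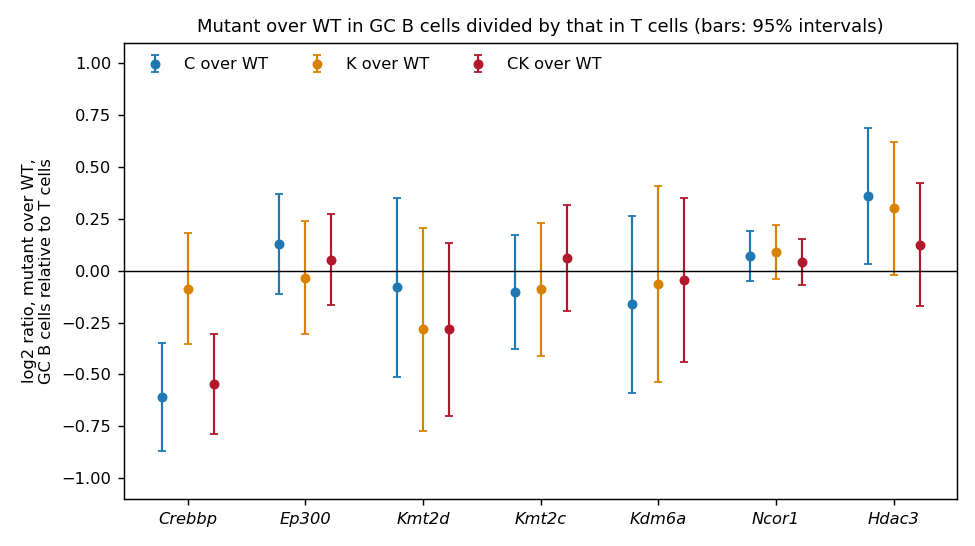
Log2 ratio of mutant over WT in GC B cells minus that in T cells, for the 7 genes in C, K and CK, with 95% intervals. Crebbp in C and CK lies at -0.61 and -0.55 with intervals below 0, and the intervals of the other genes include 0 except for Hdac3 in C.

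Within the GC, Crebbp was lower than in WT in each annotated subtype with enough UMIs, in C, K and CK alike. These subtypes run from centroblasts (CB), the dividing cells of the dark zone, to centrocytes (CC) of the light zone, to recycling cells and to prememory cells that leave the GC. In CC, Crebbp was at 61.8 CPM in WT, 41.4 CPM in C, 38.4 CPM in K and 33.6 CPM in CK. In Transitioning_CB_CC cells it was at 78.7, 43.4, 36.6 and 39.5 CPM in the same order, which for K and CK was the widest gap to WT among the subtypes. In Prememory cells, by contrast, the values of 62.5, 54.75, 40.55 and 41.3 CPM rested on 11 to 36 UMIs each and their intervals overlapped. For C, K and CK alike the ratio to WT had an interval below 0 in 3 of the 5 subtypes with at least 20 UMIs.

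The deposited pseudotime, a rank of GC B cells along a path from CB through CC to prememory cells, gave a view of Crebbp without subtype names. The cells of each library were cut into 5 equal groups by that rank. Across these groups Crebbp lay between 64.1 and 78.7 CPM in WT and between 34.7 and 42.9 CPM in K. It lay between 38.2 and 56.7 CPM in C and between 34.9 and 45.8 CPM in CK. The lowest group of WT was thus above the highest group of each mutant library, each group resting on 44 to 155 UMIs.

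**Figure D4:**
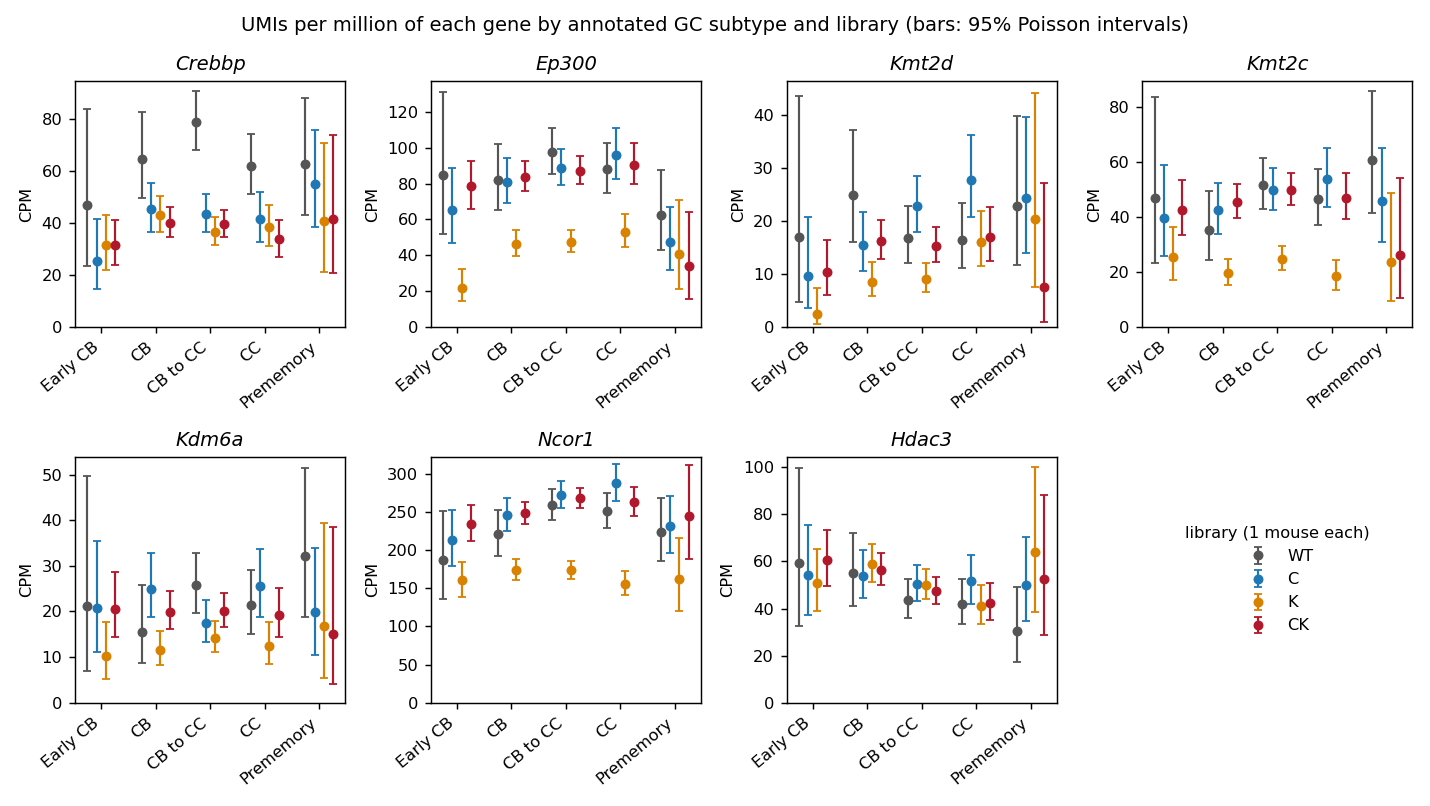
Level of each gene in CPM in 5 annotated GC subtypes, 1 point per library with its 95% Poisson interval. Recycling cells, 8 to 49 per library, are left out. Crebbp in WT is the highest of the 4 libraries in each subtype shown, while for Ep300 and Kmt2c the K library is the lowest in CB and CC.

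Ep300, whose protein shares most domains with CREBBP, did not follow it. Its level in GC B cells was 88.2 CPM in WT (80.9 to 96.0), 83.7 CPM in C (77.7 to 90.0) and 84.4 CPM in CK (79.9 to 89.1), and 45.4 CPM in K (41.8 to 49.3). In T cells the values were 67.3 CPM in WT, 58.4 CPM in C, 62.0 CPM in CK and 35.4 CPM in K, so that K was the lowest in both classes. In T cells C was also below WT, by a log2 ratio of -0.21 (-0.39 to -0.02). Relative to T cells the log2 ratio to WT was 0.13 in C (-0.11 to 0.37), -0.03 in K (-0.31 to 0.24) and 0.05 in CK (-0.16 to 0.27). A rise of the paralog by more than about 1.29-fold in C or 1.21-fold in CK lies outside these intervals, which cover counting error only. With non-GC B cells in place of T cells the fold of WT was 1.02 in C (0.846 to 1.22) and 1.08 in CK (0.883 to 1.32). Over 10 settings the log2 value reached 0.36 in C and 0.24 in CK.

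Counting Crebbp UMIs per Ep300 UMI needs no scaling between libraries and sets side by side 2 transcripts of nearly equal length. In GC B cells that ratio was 0.776 in WT (0.681 to 0.883) and 0.851 in K (0.753 to 0.961), and 0.514 in C (0.452 to 0.583) and 0.450 in CK (0.407 to 0.496). Over WT the log2 ratio was -0.59 in C (-0.85 to -0.34), -0.79 in CK (-1.02 to -0.55) and 0.13 in K (-0.12 to 0.39). In T cells it was 1.16 for WT against 1.29, 1.33 and 1.02 for C, K and CK, and in non-GC B cells 0.802 for WT against 0.816, 0.974 and 0.816. The intervals of the mutant libraries against WT included 0 in all of these.

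**Figure D5:**
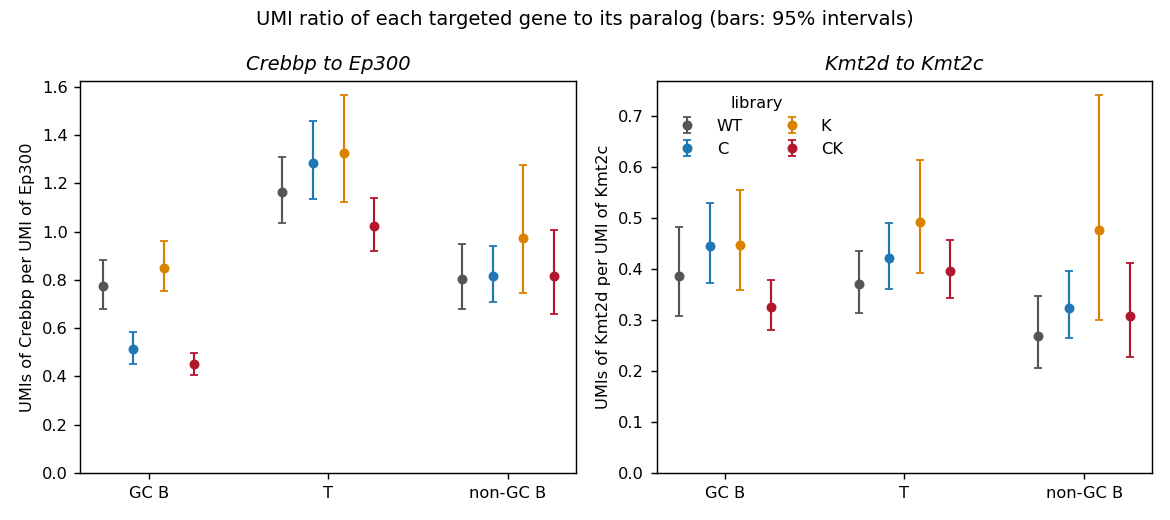
UMIs of each targeted gene per UMI of its paralog by cell class and library, with 95% intervals. Crebbp to Ep300 separates C and CK (0.514 and 0.450) from WT and K (0.776 and 0.851) in GC B cells, whereas in the other classes the intervals over WT include no change. Kmt2d to Kmt2c in GC B cells lies between 0.326 and 0.448.

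At equal depth WT again had the largest share of GC B cells with a Crebbp UMI. Cells were thinned to 2000 UMIs each, and shallower ones were left out, namely 44, 106, 88 and 330 GC B cells of WT, C, K and CK. The share with a Crebbp UMI was 12.7% for the WT library (10.8 to 14.7), against 7.65% for C (6.50 to 8.92), 6.73% for K (5.78 to 7.79) and 7.09% for CK (6.28 to 7.98). Before thinning it was 26.7%, 16.02%, 16.6% and 13.1%, at median depths of 4931, 4053, 4759 and 3653 UMIs. No cell class here lacks Crebbp, so no background share can be set beside these, and free RNA was not measured. In T cells, where 245, 593, 425 and 1929 cells were left out, the thinned share was 14.9% for WT and 14.8% for C, against 8.75% for K and 10.8% for CK.

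Kmt2d, the other targeted gene, was read from few UMIs. In GC B cells it had 112, 185, 125 and 232 for WT, C, K and CK, or 18.5 CPM (15.2 to 22.2), 21.3 CPM (18.3 to 24.6), 9.85 CPM (8.20 to 11.7) and 15.1 CPM (13.2 to 17.1). K was thus at 0.534 of WT and CK at 0.815, and the interval of CK over WT included 0 on the log2 scale (-0.63 to 0.04). In T cells Kmt2d stood at 25.7 CPM in WT, 31.3 CPM in C, 16.7 CPM in K and 25.5 CPM in CK, with K low there as well.

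Relative to T cells, the log2 ratio of Kmt2d to WT was -0.28 in K (-0.77 to 0.21), -0.28 in CK (-0.70 to 0.13) and -0.08 in C (-0.51 to 0.35). At 2000 UMIs per cell all 3 turned sign, to 0.44 in K, 0.14 in CK and 0.54 in C, where only 35 Kmt2d UMIs were left in GC B cells of WT. As a fold of WT, the interval of K ran from 0.585 to 1.16 and that of CK from 0.616 to 1.098. A lower level of Kmt2d with the floxed allele was thus not detected. Levels below 0.585 in K or 0.616 in CK lie outside these intervals, which hold for the T cell reference and cover counting error only. With non-GC B cells in place of T cells the fold of WT was 0.942 in K (0.578 to 1.54). In CK it was 0.723 (0.483 to 1.08), an interval that reaches lower than the one with T cells. In the 2-factor test, libraries with Kmt2d fl differed by -0.19 (SE 0.16, edgeR adjusted p = 0.75), while 45 genes, 0.413% of 10892, were called. Kmt2d UMIs per Kmt2c UMI in GC B cells were 0.386 for WT against 0.445, 0.448 and 0.326 for C, K and CK, with overlapping intervals. In K the same ratio was above WT in T cells, by a log2 ratio of 0.41 (0.02 to 0.80), and in non-GC B cells, by 0.82 (0.11 to 1.54). In CB, Kmt2d was at 24.9 CPM in WT, 15.4 CPM in C, 8.53 CPM in K and 16.1 CPM in CK. In CC it was at 16.4, 27.6, 15.98 and 16.98 CPM. The log2 ratio to WT in CB was -0.70 in C (-1.51 to 0.13), -1.55 in K (-2.37 to -0.71) and -0.63 in CK (-1.31 to 0.10). In CC it was 0.75 in C (0.08 to 1.45), -0.04 in K (-0.76 to 0.70) and 0.05 in CK (-0.64 to 0.76). These subtype values have no T cell reference.

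Kmt2c, which encodes the paralog of KMT2D, had nearly the same level in 3 of the libraries. In GC B cells it was at 47.8 CPM in WT (42.5 to 53.7), 47.8 CPM in C (43.3 to 52.6) and 46.2 CPM in CK (42.9 to 49.7), and at 21.99 CPM in K (19.5 to 24.7). T cells had 69.3, 74.3 and 64.2 CPM in WT, C and CK and 33.9 CPM in K. Relative to T cells the log2 values were -0.10, -0.09 and 0.06 in C, K and CK, all with intervals that included 0. Against non-GC B cells, which in K held 65 Kmt2c UMIs, the value of K was 0.52 (0.07 to 0.98).

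Kdm6a, the X-linked demethylase in the complexes of both methyltransferases, was lowest in K as well. It was at 22.9 CPM in WT (19.3 to 27.1), 21.3 CPM in C (18.3 to 24.6), 12.7 CPM in K (10.8 to 14.8) and 19.98 CPM in CK (17.8 to 22.4) in GC B cells. In T cells the values were 24.96, 25.9, 14.5 and 22.4 CPM. The log2 values relative to T cells were -0.16, -0.06 and -0.04 in C, K and CK, with intervals that together span -0.59 to 0.41. Uty, its Y-linked homolog, was read in all 4 libraries, in GC B cells at 14.7 CPM for WT, 13.8 CPM for C and 14.1 CPM for CK against 7.88 CPM for K. In T cells it was at 18.9 CPM for WT and 11.3 CPM for K.

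Ncor1 and Hdac3 stand for the opposing side, and both were measured more precisely than Kmt2d. Ncor1 was at 244.7 CPM in WT (232.4 to 257.5), 261.1 CPM in C (250.5 to 272.1), 168.0 CPM in K (160.9 to 175.3) and 255.9 CPM in CK (248.0 to 264.0) in GC B cells. T cells held 343.1, 348.7, 221.4 and 348.3 CPM in the same order. Relative to T cells the log2 values were 0.07 in C (-0.05 to 0.19), 0.09 in K (-0.04 to 0.22) and 0.04 in CK (-0.07 to 0.15), the narrowest intervals among the 7 genes.

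Hdac3, the gene with the shortest exons of the 7, was the exception to the low values of K. Its level in GC B cells was 44.5 CPM in WT (39.4 to 50.2), 51.8 CPM in C (47.2 to 56.9), 50.8 CPM in K (47.0 to 54.9) and 51.1 CPM in CK (47.6 to 54.8). T cells were at 35.5, 32.2, 32.9 and 37.4 CPM. Each mutant library was above WT in GC B cells, at 1.16, 1.14 and 1.15 of WT in C, K and CK, and each of these intervals included no change. Relative to T cells the log2 value was 0.36 in C (0.03 to 0.69), 0.30 in K (-0.02 to 0.62) and 0.13 in CK (-0.17 to 0.42). With non-GC B cells in place of T cells it was 0.14 in C (-0.28 to 0.55) and 0.57 in K (0.07 to 1.07), so that which library stood above 0 changed with the reference. At 2000 UMIs per cell Hdac3 in K was at a log2 ratio of -0.06 to WT in GC B cells.

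Counted over the 7 genes, the mutant libraries differed as the single values show. In GC B cells, 1 of the 7 was lower than in WT by 1.5-fold or more in C (Crebbp, where 3.94% of 10152 genes were), 5 in K (23.6% of 10274) and 1 in CK (Crebbp, 9.03% of 10531). In T cells the numbers were 0 in C (5.01% of 10899), 6 in K (22.4% of 10785) and 0 in CK (4.17% of 11131). None of the 7 was higher by that fold in GC B cells, where 4.95%, 5.07% and 8.65% of genes were in C, K and CK. Over the 7 genes in GC B cells the median log2 ratio stood at -0.00019 for C, -0.85 for K and -0.06 for CK, beside 0.0058, -0.16 and -0.03 over all genes tested.

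The 4 libraries also serve as replicates of the difference between cell classes, since each mouse gave all of them. In that comparison all 7 genes passed the threshold between GC B cells and T cells, 2 of them higher and 5 lower in GC B cells (edgeR with library as a block, adjusted over 10892 genes, of which 36.5% were called higher and 37.4% lower). Ep300 rose by a log2 difference of 0.43 (SE 0.06, edgeR adjusted p = 4.6e-05), with GC over T ratios of 1.28 to 1.43 in the 4 libraries. Hdac3 rose by 0.52 (SE 0.08), with ratios of 1.25 to 1.61. The 2 paralogs of the acetyltransferase pair thus went opposite ways, since Crebbp fell by 0.51 (SE 0.10, edgeR adjusted p = 0.0009). In WT alone the GC over T ratio of Crebbp was 0.873, nearer to 1 than the -0.51 that includes C and CK.

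Both methyltransferase genes were lower in GC B cells than in T cells in every library. Kmt2d fell by 0.65 (SE 0.08), with ratios of 0.591 to 0.718, and Kmt2c fell by 0.57 (SE 0.07), with ratios of 0.644 to 0.720. The fall of Kmt2d includes K and CK, at a ratio of 0.591 each, against 0.718 in WT and 0.680 in C. Ncor1 fell by 0.44 (SE 0.05), with ratios of 0.713 to 0.759, the least spread of the 7. For Kdm6a the log2 difference was -0.20 (SE 0.08, edgeR adjusted p = 0.04), and its call was lost when any library was left out (adjusted p of 0.051 to 0.17). The log2 difference of Kdm6a was -0.08 without cells that held markers of both lineages. Without the K library the other 6 genes were still called.

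Non-GC B cells gave a second reference that shares the B lineage, though its level of plasma cell markers differed between libraries. There 5 of the 7 genes were called, 1 higher and 4 lower in GC B cells (edgeR, 10086 genes tested, 34.7% higher and 32.2% lower). Hdac3 rose by 0.75 (SE 0.10), while Kmt2c fell by 0.71 (SE 0.09), Crebbp fell by 0.49 (SE 0.11), Kmt2d fell by 0.42 (SE 0.12) and Ncor1 fell by 0.16 (SE 0.06). The GC over non-GC B ratio of Crebbp was at 0.660 of WT in C and 0.616 in CK, against 0.928 in K. The fall of 0.49 for Crebbp thus includes C and CK, where that ratio was lower. Likewise the fall of 0.42 for Kmt2d includes K and CK, at 0.942 and 0.723 of the WT ratio, against 0.968 in C. Ep300 had a log2 difference of -0.04 (SE 0.07) and Kdm6a of 0.018 (SE 0.12). Ep300 therefore passed the threshold against T cells only, and Hdac3 against both. The call of Ncor1 was lost without C and without CK (edgeR adjusted p of 0.058 and 0.061). Without the library as a block, 4 of the 7 were called against T cells and 3 against non-GC B cells, where Kmt2d (adjusted p = 0.1) and Ncor1 (0.36) were lost.

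From CB to CC the differences were smaller. Ep300 rose by 0.23 (SE 0.09, edgeR adjusted p = 0.022) and Ncor1 by 0.15 (SE 0.06, edgeR adjusted p = 0.045), while Hdac3 fell by 0.29 (SE 0.10, edgeR adjusted p = 0.019), among 8602 genes of which 26.1% were called higher and 26.9% lower. Kmt2d had a difference of 0.41 (SE 0.19, edgeR adjusted p = 0.061), which passed the threshold without the WT library (0.58) and without the CK library (0.58). Kmt2c, Kdm6a and Crebbp had 0.22, 0.14 and -0.08 and were not called. These 3 calls were fragile: 1 was left without the C library or without the K library, and none in DESeq2 or without the block.

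Ordered by the median over the 4 libraries, the classes ranked differently for each gene, and neighbours in these orders overlapped in range for 7 of 7 pairs in all genes but Hdac3, with 6 of 7. Crebbp was highest in non-GC B cells and T cells (medians of 69.6 and 69.2 CPM) and lowest in Early_Centroblast cells (31.4 CPM). Those medians include C and CK. In WT alone, Crebbp stood at 78.7 CPM in Transitioning_CB_CC cells, 78.4 CPM in T cells and 75.2 CPM in non-GC B cells. The Early_Centroblast values of Crebbp rested on 11 to 55 UMIs each. Kmt2d, Kdm6a and Ncor1 were highest in T cells, at medians of 25.6, 23.7 and 345.7 CPM. Ep300 was highest in CC (89.2 CPM) and lowest in Prememory cells (43.8 CPM). Hdac3 ran from 56.8 CPM in Early_Centroblast cells through 42.3 CPM in CC to 30.1 CPM in non-GC B cells.

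The genes around these 7 were read as lists. Over all genes, 36.5% rose and 37.4% fell in GC B cells against T cells, so calls in both directions are common in any list. Of 7 partners of KMT2C and KMT2D, 3 rose and 2 fell, shares near those of all genes. Dpy30, a core subunit that stimulates methylation, rose by 0.59 (SE 0.08), and Paxip1, another subunit of these complexes, rose by 0.57 (SE 0.12). Pagr1a, the partner of PAXIP1, fell by 1.02 (SE 0.26), from 11 to 30 UMIs per class and library. Of 4 other H3K4 methyltransferases, 1 rose and 1 fell. Kmt2a rose by 0.57 (SE 0.05), and Setd1b fell by 2.08 (SE 0.10).

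Of 6 demethylases of H3K4 and H3K27, none rose and 4 fell in GC B cells against T cells, with a median log2 difference of -0.29 beside -0.01 over all genes, of which 37.4% fell. Kdm5b, which removes methyl groups from H3K4, fell by 2.95 (SE 0.12), and Kdm6b, the second H3K27 demethylase, fell by 1.60 (SE 0.13). Among 7 other acetyltransferases 2 rose and 4 fell. Kat5 rose by 0.65 (SE 0.11), whereas Kat6b fell by 1.56 (SE 0.10). Of 8 genes of the NCOR/SMRT complex and class I deacetylases, 4 rose and 2 fell. Bcl6, the repressor that recruits NCOR1 and a marker of GC B cells, rose by 1.34 (SE 0.11), and Hdac1 rose by 0.71 (SE 0.07).

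Against non-GC B cells, the same lists had 3 higher and 1 lower of 7 partners, 1 and 1 of 4 methyltransferases, 0 and 4 of 6 demethylases, 0 and 2 of 7 acetyltransferases, and 5 and 0 of 7 corepressor genes, where 34.7% of all genes were higher and 32.2% lower. Bcl6 was left out of that count because the rule for non-GC B cells used it. From CB to CC, Kdm6b rose by 1.95 (SE 0.26) and Tbl1x, a subunit of the NCOR complex, rose by 0.41 (SE 0.10), while Paxip1 fell by 0.99 (SE 0.18) and Hdac8 fell by 0.85 (SE 0.15).

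Between genotypes the list genes gave no call in the 2-factor test. Of 32 genes, 0 passed for Crebbp fl (lowest edgeR adjusted p = 0.77) and 0 for Kmt2d fl (lowest 0.18, for Dpy30), where 0.0459% and 0.413% of all genes passed, so few calls could fall on 32 genes. At an unadjusted p under 0.05 there were 609 and 1077 of 10892 genes. In K, all 6 demethylases were lower than in WT by 1.5-fold or more in GC B cells, and 5 of them in T cells as well, where 23.6% and 22.4% of all genes were and where long genes were low in general. Kdm6b was the exception, at 9.07 CPM in WT, 6.90 CPM in C, 5.28 CPM in K and 5.97 CPM in CK in GC B cells. In T cells it stood at 18.9, 21.6, 19.7 and 19.5 CPM. Relative to T cells its log2 ratio to WT was -0.59 in C (-1.20 to 0.03), -0.84 in K (-1.45 to -0.23) and -0.65 in CK (-1.22 to -0.08). Paxip1 went the other way, at 16.2 CPM for WT and 19.1, 19.9 and 25.1 CPM for C, K and CK in GC B cells, and at 14.9, 14.1, 12.4 and 13.7 CPM in T cells. Its log2 ratio relative to T cells was 0.32 in C (-0.20 to 0.84), 0.57 in K (0.05 to 1.09) and 0.76 in CK (0.29 to 1.23). Both genes were singled out from the 32 after their values were seen, and other list genes had intervals off 0 as well. In CK these included Bcl6 at -0.66 (-0.99 to -0.33) and Kat6a at -0.32 (-0.57 to -0.06). Above 0 they included Hdac2 at 0.51 (0.25 to 0.76) and Dpy30 at 0.42 (0.23 to 0.61).

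Likeness was read as Pearson's r of log2(CPM + 1) over 26 sums of subtype or T cells by library, among 7172 genes. These sums share libraries, depth and the length gradient of K, and r is a description. Nearest to Ncor1 was Ets1, a lymphoid transcription factor, at r = 0.94, followed by Mycbp2 (0.93) and Jak1 (0.92). Kmt2c lay nearest to Cast (0.91), Pkn2 (0.91) and 2310035C23Rik (0.91). For Crebbp the nearest were Ldah (0.75), Rap1b (0.74) and Vapb (0.73), and over the sums without Recycling cells Serinc1 (0.83), Sp100 (0.81) and Ccnl1 (0.80).

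Several other values of r rested on Recycling cells, where Ep300, Kmt2d and Kdm6a had 0 UMIs in K. Ep300 with Kdm3b, Usp38 and Pnpla8 went from 0.97, 0.95 and 0.95 to 0.85, 0.83 and 0.75 over the 24 sums without them. Kdm6a with Prpf39, Wdr82 and Smg1 went from 0.96, 0.95 and 0.95 to 0.78, 0.68 and 0.78. Kmt2d with Rnf13, Marf1 and Zmym2 (0.91, 0.91 and 0.90) went to 0.80, 0.80 and 0.78. Hdac3 with Cnot9, Fadd and Blmh (0.83, 0.82 and 0.82) went to 0.66, 0.75 and 0.69. Among the 7 genes themselves, Kmt2c and Ncor1 had an r of 0.87 with these sums and 0.86 without them. Crebbp and Ep300 had -0.17 with and 0.23 without, the lowest value of Ep300 with any of the other long genes. Sums of C and CK enter both values. There Crebbp in GC B cells was at 0.628 and 0.555 of WT, and Ep300 at 0.95 and 0.96. The part of the floxed allele in this r was not tested.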

How the data were processed

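The authors counted UMIs with Cell Ranger (3.0.2 per the file headers) on mm10, and deposited raw counts per gene and barcode. The deposited cell table of Seurat 4.0 holds GC subtype names, other scores and percentages, of which names and the pseudotime score were read. UMIs were summed per library and class. T cells were unannotated cells with at least 2 Cd3 UMIs. Non-GC B cells had at least 2 Cd79a and Cd79b UMIs, no Cd3 or GC marker UMI, under 2500 genes and under 8% mitochondrial UMIs. Doublets were not called. Instead, cells with markers of both lineages were left out in an alternative. Intervals were exact Poisson, exact binomial or, relative to T cells, normal on the log scale, at 95%. Between genotypes a gene was compared where the 2 libraries together held at least 20 of its UMIs, and a fold of 1.5 was counted. For shares of genes relative to T cells, GC B cells and T cells of both libraries each had to hold at least 20. Classes were compared in edgeR 4.0.16 (R 4.3.3) with the filterByExpr filter, TMM factors and the mouse as a block, since the classes of 1 library come from the same mouse. The deviations of GC B and T cells from their class means correlated at 0.44 to 0.84 within libraries. DESeq2 1.42.0, scipy 1.17.1 and numpy 2.4.6 were also used. Replicates are single mice that differ in genotype. Lengths are merged exons of GENCODE vM21. Scripts were tested on simulated counts. The 7 genes, the lists and the rule for named genes (the 7 genes, 32 list genes and the 3 nearest by r) were chosen with earlier results of these data known.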

Additional observations from a re-analysis of the deposited data

How the results depend on the processing

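Crebbp over WT kept its sign in C, K and CK within GC B cells under all 6 alternatives of that ratio, and in C and CK relative to T cells under all 9 of that one. Kmt2d moved with thinning to 2000 UMIs per cell, which left 35 of 112 UMIs in WT: its log2 ratio to WT became 0.68 in C and -0.48 in K, and relative to T cells 0.54 in C, 0.44 in K and 0.14 in CK. Without the mouse as a replicate block, 4 of the 7 genes were called against T cells, 3 against non-GC B cells and 0 from CB to CC, where 2845 genes in all were called in place of 4552. From CB to CC, DESeq2 called 2952 genes and 0 of the 7, and 1 of the 7 was called without TMM and 1 with no filter on low counts. Leaving out 1 library in turn left 1 to 3 of the 7 from CB to CC. Against non-GC B cells, Ep300 was at 0.0095 with no filter, and Kdm6a at -0.0096 without the block and between -0.073 and 0.11 with 1 library left out, below 0 without C or without K.

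For Crebbp fl, 5 genes were called, against 2 in DESeq2, 48 with no filter, 15 with T cells of at least 3 Cd3 UMIs, 166 with T cells under the limits of the annotation, 31 without cells of both lineages, 0 with no term for Kmt2d fl and, in that fit, 0 to 276 with 1 library left out (276 without K). Crebbp itself lay between -0.61 and -0.50 with 1 library left out and passed in 4 of 11 settings, at -0.50 with no filter, -0.54 under the annotation limits, -0.55 without cells of both lineages and -0.59 without K. For Kmt2d fl, 45 genes were called, against 10, 256, 83, 364 and 244 in the same settings, 17 with no term for Crebbp fl and 0 to 42 with 1 library left out. Where 0 genes were called in edgeR, an unadjusted p under 0.05 was reached by 389 genes for Crebbp fl with 1 term and 240 without C, and for Kmt2d fl by 1076 without C and 744 without CK. Among settings with calls, the share of higher calls ran from 18.1% to 100% for Crebbp fl (80% as reported) and from 0% to 50% for Kmt2d fl (20%). The cause of these shifts was not tested. With 1 library left out the full 2-factor test has no residual degrees of freedom, hence the fit with 1 term. DESeq2 gave no adjusted p for Kmt2d. With 1 mouse per genotype, mouse and genotype cannot be told apart.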
